A study of Arabidopsis thaliana with 12 samples.

Results

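In 3-week-old Arabidopsis seedlings, 39 of the 27655 measured genes were expressed in the wild type (Col) and low in each of 3 other genotypes. The set was chosen from the deposited expression values themselves. A gene belongs to it when its mean over the Col libraries was at least 5 TPM (a level that is scaled by gene length and sums to the same total in every library) and when its mean in each other group was at most 25% of the Col mean. Of the 27655 genes, 15756 reached the Col minimum. The low level outside Col is therefore how the genes were picked, and it is described below without a test. What was left to examine is which genes they are, where they lie, what they are annotated with, and how the groups other than Col differ among themselves.

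The series measured RNA by sequencing in whole seedlings grown at 22 °C with a day of 16 h and a night of 8 h, with 4 groups of 3 libraries. Col is the wild type. The groups called HTR5 and K4A below are labelled h3.3ko;HTR5 and h3.3ko;HTR5 K4A: both carry h3.3ko, a knockout of histone H3.3, together with HTR5, one of the H3.3 genes, and in K4A the HTR5 copy has alanine in place of lysine 4. The last group is labelled sdg2, after the gene of a methyltransferase of histone H3 lysine 4. The labels give neither the promoter nor the number of lines of the HTR5 constructs, and they do not say whether replicates came from separate cultures, so p-values below measure the spread between these libraries.

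Read totals were 13744650 to 14145182 in Col, 13690625 to 14504608 in HTR5, 20695807 to 30323886 in sdg2 and 21488041 to 27610911 in K4A. Col and HTR5 thus form a shallower set and K4A and sdg2 a deeper one. Any difference between these sets cannot be told apart from genotype where Col or HTR5 is set against K4A or sdg2. HTR8, an H3.3 gene, had a mean of 244 TPM in Col, 6.49 in HTR5 and 4.80 in K4A. HTR4, another H3.3 gene, had means of 316 TPM in Col, 169.6 in HTR5, 273 in sdg2 and 77.9 in K4A, while the SDG2 transcript was higher in the libraries labelled sdg2 (161 ± 19.4 TPM, SD, n = 3) than in Col (21.9 ± 3.1). HTR5 replicate 2 stood apart from the other 2 HTR5 libraries, with a chi-square per degree of freedom, taken over the reads of all genes, of 18.5 and 15.2 against them and of 2.21 between the other pair. Without that library 41 genes met the rule, and all 39 were among them.

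Many of the genes encode small proteins. Plant defensins and defensin-like proteins are short cysteine-rich peptides that act against microbes or as signals between cells, and PDF1.2 is a standard marker of the jasmonate and ethylene defence response. BAN encodes anthocyanidin reductase, which makes the precursors of the tannins that colour the seed coat, and DELTA-VPE encodes a vacuolar cysteine protease known from the inner layers of the young seed coat. In whole seedlings, fewer cells of a type and less RNA per cell cannot be told apart.

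The region just before the gene is shown for 6 of the genes. The 4 plant defensins were taken because their coding sequences are nearly identical while their levels are not. BAN and DELTA-VPE were taken because both are known from the seed coat. They are not the only genes of the set linked to seeds, since the annotation of GILT and AT5G49180 also names stages of seed development. The 300 bases before the annotated start were read 5′ to 3′ on the gene's strand from the RefSeq TAIR10.1 genome. Capitals mark matches to a GCC box (GCCGCC), a G box (CACGTG), an RY core (CATGCA), each on either strand, or TATAAA on the gene's strand.
PDF1.2 (chr5:17907639-17907938, reverse strand): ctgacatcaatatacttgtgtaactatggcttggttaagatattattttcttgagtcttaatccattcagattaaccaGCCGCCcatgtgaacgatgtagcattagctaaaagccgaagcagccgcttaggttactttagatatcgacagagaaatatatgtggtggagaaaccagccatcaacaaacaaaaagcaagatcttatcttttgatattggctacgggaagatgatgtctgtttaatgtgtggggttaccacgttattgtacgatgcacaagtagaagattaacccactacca
PDF1.2c (chr5:17909508-17909807, reverse strand): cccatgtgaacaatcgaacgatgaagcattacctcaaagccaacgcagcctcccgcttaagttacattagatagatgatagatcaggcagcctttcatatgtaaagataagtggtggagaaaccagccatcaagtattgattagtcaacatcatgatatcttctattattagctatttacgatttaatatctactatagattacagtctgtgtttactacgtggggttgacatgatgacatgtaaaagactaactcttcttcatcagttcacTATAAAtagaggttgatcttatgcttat
PDF1.2b (chr2:11088823-11089122, forward strand): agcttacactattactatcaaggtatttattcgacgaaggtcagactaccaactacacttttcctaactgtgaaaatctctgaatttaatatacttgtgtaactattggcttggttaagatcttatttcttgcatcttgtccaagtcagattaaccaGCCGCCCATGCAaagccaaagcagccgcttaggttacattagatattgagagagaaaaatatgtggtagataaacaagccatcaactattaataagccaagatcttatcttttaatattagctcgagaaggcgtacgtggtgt
PDF1.3 (chr2:11086980-11087279, forward strand): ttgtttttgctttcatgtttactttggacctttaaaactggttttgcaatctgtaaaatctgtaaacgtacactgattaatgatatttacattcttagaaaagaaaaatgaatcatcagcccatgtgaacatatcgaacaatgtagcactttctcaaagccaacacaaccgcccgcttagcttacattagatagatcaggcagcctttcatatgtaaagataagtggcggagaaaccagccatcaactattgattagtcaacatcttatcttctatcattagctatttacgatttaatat
BAN (chr1:22792804-22793103, reverse strand): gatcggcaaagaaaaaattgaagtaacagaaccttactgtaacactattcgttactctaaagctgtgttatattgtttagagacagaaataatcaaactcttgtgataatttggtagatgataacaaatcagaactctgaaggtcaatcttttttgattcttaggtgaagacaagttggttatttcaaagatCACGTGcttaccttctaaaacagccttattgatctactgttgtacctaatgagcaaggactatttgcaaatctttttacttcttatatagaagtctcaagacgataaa
DELTA-VPE (chr3:7052047-7052346, forward strand): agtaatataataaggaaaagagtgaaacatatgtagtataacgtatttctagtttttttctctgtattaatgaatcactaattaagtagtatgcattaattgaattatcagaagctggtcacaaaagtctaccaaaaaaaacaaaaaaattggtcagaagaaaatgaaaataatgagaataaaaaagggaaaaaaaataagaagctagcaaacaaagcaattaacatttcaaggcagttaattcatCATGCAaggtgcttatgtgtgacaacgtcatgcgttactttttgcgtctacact

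The GCC box was found before PDF1.2 and PDF1.2b, 222 and 143 bases before the start, and not before PDF1.2c or PDF1.3. In PDF1.2b the GCC box ran directly into an RY core. BAN had a G box 108 bases before its start and DELTA-VPE an RY core 54 bases before its own. Over the 39 genes, a GCC box lay in 2 windows (5.13%, against 2.26% of 27438 genes), a G box in 4 (10.3%, against 7.09%), an RY core in 7 (17.9%, against 10.3%) and TATAAA in 19 (48.7%, against 37.0%). The CArG box, the motif of MADS-domain factors, was found in 3 windows (7.69%, against 2.93%). These are counts of letters in a window and describe no binding.

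All 39 genes matched a RefSeq locus, and they lie on every chromosome: 11 on chromosome 1, 6 each on chromosomes 2, 3 and 4, and 10 on chromosome 5. Their Col means ran from 5.16 to 335 TPM with a median of 10.6. Of these genes 18 were below 10 TPM, 14 between 10 and 30, and 7 at or above 30. In all 39 the lowest Col library was above the highest of the other 9 libraries. In 31 it was more than 4 times as high. Such a gap follows largely from the rule and says nothing further about the genes. Between 41 and 9105 reads stood behind a gene in the Col libraries together, so the low genes rest on few reads.

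**Figure D1:**
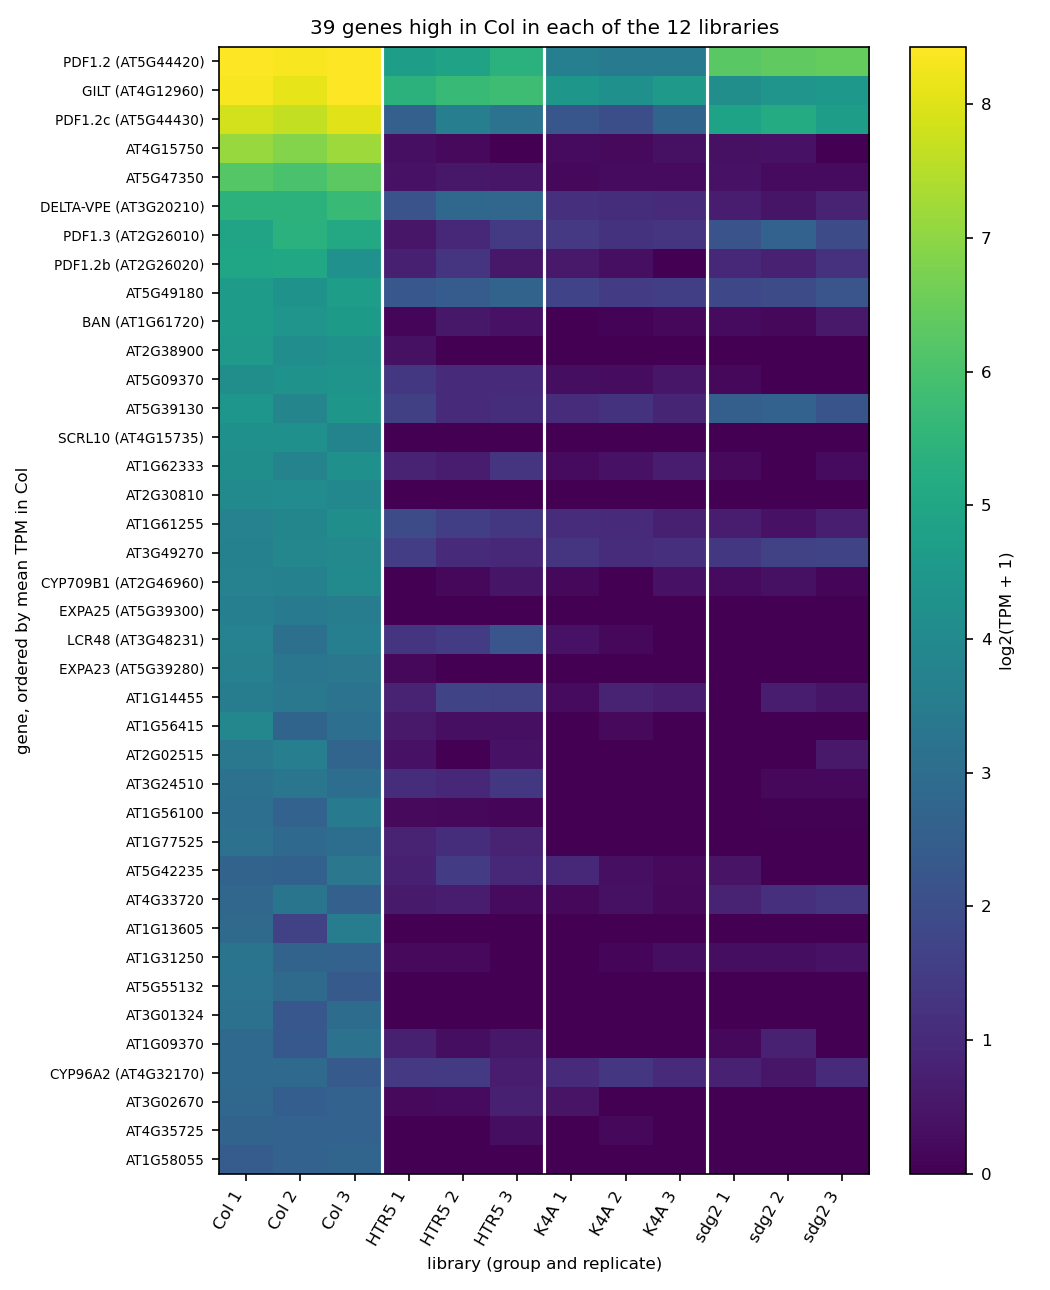
Level of each of the 39 genes, as log2(TPM + 1), in each of the 12 libraries, with genes in order of their Col mean and white lines between groups. PDF1.2 and PDF1.2c keep a visible level in sdg2 and GILT in HTR5, while SCRL10, AT2G30810 and EXPA25 are dark in all 9 libraries outside Col.

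The plant defensins were the highest family. PDF1.2 (AT5G44420, chr5:17906968-17907638) read 337, 325 and 343 TPM in the Col libraries, 25, 27.6 and 40.4 in HTR5, 76.5, 81.1 and 85.3 in sdg2 and 11.4, 9.8 and 10.5 in K4A. Its 4 groups did not overlap, and sdg2 kept the most and K4A the least. PDF1.2c (AT5G44430), the next gene on that strand, read 233, 202 and 262 TPM in the Col libraries, 5.02, 11.3 and 8.3 in HTR5, 28.4, 35 and 24.6 in sdg2 and 3.81, 3.11 and 5.51 in K4A. PDF1.3 (AT2G26010) read 29.1, 40.5 and 33.1 TPM in the Col libraries, 0.416, 0.934 and 1.73 in HTR5, 3.45, 5.26 and 2.78 in sdg2 and 1.66, 1.35 and 1.41 in K4A. In both, sdg2 again lay above HTR5 and K4A in every library. PDF1.2b (AT2G26020) read 31, 31.3 and 18.1 TPM in the Col libraries, 0.659, 1.48 and 0.457 in HTR5, 0.972, 0.696 and 1.31 in sdg2 and 0.479, 0.26 and 0 in K4A, and here the HTR5 and sdg2 libraries overlapped.

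The 4 defensins form 2 tandem pairs on the same strand, PDF1.2 with PDF1.2c at a gap of 1211 bases and PDF1.3 with PDF1.2b at 1121 bases. Their coding sequences are 91.4 to 94.7% identical, so reads could have been divided between them in the authors' counting, and the level of each copy is uncertain. The 300 bases before the start were 51.0 to 63.0% identical. PDF1.4 (AT1G19610), a relative outside the set, had means of 2.43 TPM in Col, 2.90 in HTR5, 0.515 in sdg2 and 6.81 in K4A. The other genes of a list of jasmonate-responsive genes did not meet the rule. The summed level of the 4 listed genes besides PDF1.2 was 1434 TPM in Col, 1407 in HTR5, 2146 in sdg2 and 2242 in K4A. Most of the Col sum lay in VSP1, LOX2 and VSP2 (507, 506 and 288 TPM), so the sum says little of the fourth gene. None of those 4 was at or below 50% of Col in every other group, and the one with a lower mean in all 3 was the thionin gene THI2.1, with means of 134 TPM in Col, 74.6 in HTR5, 13.5 in sdg2 and 17.2 in K4A.

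GILT (AT4G12960), the second-highest gene of the set by its Col mean and a member of a family named after a lysosomal thiol reductase of animals, read 322, 277 and 344 TPM in the Col libraries, 42, 50.4 and 55.3 in HTR5, 17, 19.9 and 21.4 in sdg2 and 20.8, 17.8 and 21.8 in K4A. HTR5 kept the most, and K4A and sdg2 overlapped. Its relatives AT4G12870 (means of 52.3 TPM in Col, 23.6 in HTR5, 27.1 in sdg2 and 10.7 in K4A) and AT4G12890 (12.2, 4.30, 4.78 and 1.85 TPM in the same order) were also highest in Col without meeting the rule. AT4G12900 went the other way, with 5.41 TPM in Col, 6.52 in HTR5, 13.5 in sdg2 and 12.3 in K4A.

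DELTA-VPE (AT3G20210) read 42, 41.6 and 50.1 TPM in the Col libraries, 3.51, 6.12 and 5.92 in HTR5, 0.554, 0.396 and 0.745 in sdg2 and 1.27, 1.15 and 0.993 in K4A. Its 4 groups did not overlap and fell in the order Col, HTR5, K4A, sdg2. Of the 3 other vacuolar processing enzymes, GAMMA-VPE, the main form of vegetative organs, had means of 294 TPM in Col, 325 in HTR5, 735 in sdg2 and 627 in K4A. BETA-VPE, known from seeds, had 18.2 TPM in Col, 14.9 in HTR5, 16.6 in sdg2 and 15.7 in K4A. An antisense RNA gene overlaps DELTA-VPE over 220 bases, and the use of strand in counting is not given in the sources used here.

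**Figure D2:**
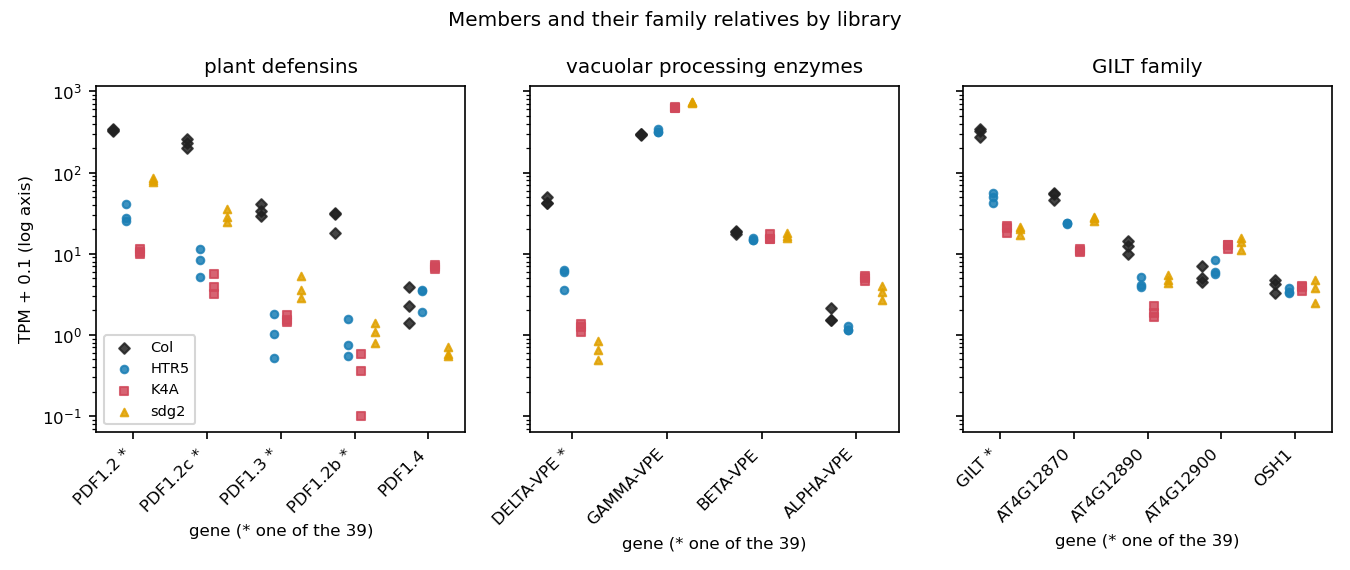
TPM + 0.1 on a log axis in each library for members and relatives of 3 families, with 1 point per library and colour and shape by group. PDF1.2, DELTA-VPE and GILT sit far below Col in the other groups, whereas GAMMA-VPE (294 TPM in Col, 735 in sdg2) and AT4G12900 are higher in K4A and sdg2.

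BAN (AT1G61720) read 23.6, 19.8 and 22.9 TPM in the Col libraries, 0.0816, 0.459 and 0.339 in HTR5, 0.181, 0.129 and 0.486 in sdg2 and 0, 0.0484 and 0.123 in K4A. The 9 other libraries held 0 to 8 reads each against 232 to 277 in each Col library. CYP709B1 (AT2G46960), a cytochrome P450, read 12.4, 12 and 15.2 TPM in Col and 0 to 0.400 TPM in the other 9 libraries. CYP96A2 (AT4G32170), another P450, kept more: 6.29, 6.31 and 4.26 TPM in the Col libraries, 1.62, 1.72 and 0.561 in HTR5, 0.696, 0.427 and 1.07 in sdg2 and 1.05, 1.54 and 1.02 in K4A. It was the gene with the most left in HTR5 (23.1% of Col) and in K4A (21.4%).

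Of the 40 genes of the invertase and pectin methylesterase inhibitor family that reached 5 TPM in Col, 4 met the rule. The family was set by product words, which do not show that each protein is an inhibitor. AT5G49180 has 571 codons, against 171 in AT4G15750. AT4G15750 read 138, 116 and 144 TPM in the Col libraries, 0.274, 0.154 and 0 in HTR5, 0.302, 0.325 and 0 in sdg2 and 0.199, 0.162 and 0.31 in K4A. It kept 0.107 to 0.168% of its Col mean, with 2781 reads in Col and 3, 7 and 7 in HTR5, K4A and sdg2. AT5G49180, whose product is annotated to the same family, read 24.3, 19.1 and 25.4 TPM in the Col libraries, 3.88, 4.49 and 5.37 in HTR5, 2.53, 2.84 and 3.67 in sdg2 and 2.22, 1.84 and 1.95 in K4A, and kept 8.74 to 19.96%. AT1G56100 (7.53, 5.33 and 10.2 TPM in Col) and AT1G09370 (6.38, 4.03 and 8.11 TPM) complete the family. AT1G56100 was at 0 to 0.160 TPM and AT1G09370 at 0 to 0.717 TPM in the other libraries.

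The expansins EXPA25 (AT5G39300) and EXPA23 (AT5G39280), which loosen cell walls, read 11.4, 9.74 and 10.5 TPM and 11.7, 8.84 and 9.04 TPM in Col. EXPA25 had 0 reads in all 9 other libraries, and EXPA23 had 1 read in 1 HTR5 library. Against a floor of 3 reads over a group, EXPA25 was at least 74.4-fold higher in Col than in HTR5, and at least 115-fold higher than in K4A and in sdg2. The 2 genes are 2 ranks apart on chromosome 5 and 97.5% identical in coding sequence, so their reads may also have been divided. They were 2 of the 13 expansin A genes that reached 5 TPM in Col, and the other 11, with EXPA1 at 180.4 TPM in Col, 126 in HTR5, 170.3 in sdg2 and 94.8 in K4A, did not meet the rule. AT3G49270, an extensin-like gene, read 12.1, 13.9 and 14.6 TPM in the Col libraries, 1.87, 1.05 and 0.972 in HTR5, 1.55, 2.12 and 2.28 in sdg2 and 1.46, 1.11 and 1.21 in K4A. The proline-rich AT1G31250 (8.54, 5.39 and 5.27 TPM in Col) and the glycine-rich AT3G02670 (6.11, 4.77 and 5.31 TPM) stayed at or below 0.338 and 0.676 TPM elsewhere. With AT3G49270 they were 3 of the 62 proline-rich, glycine-rich or extensin-like genes that reached 5 TPM in Col.

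Defensin-like, LCR and SCR-like peptides gave 7 of the 39 genes, out of 16 such genes that reached 5 TPM in Col and 215 in the table. SCRL10 (AT4G15735), related to the pollen self-recognition peptide SCR, read 17.6, 18 and 13.1 TPM in Col and 0 in each of the 9 other libraries. It lies 3935 bases from AT4G15750 on the opposite strand. LCR48 (AT3G48231) read 12.5, 7.6 and 11.4 TPM in the Col libraries, 1.4, 1.84 and 3.65 in HTR5, 0 throughout in sdg2 and 0.34, 0.139 and 0 in K4A. It kept 22.0% of its Col mean in HTR5, and nearly none in the other groups. AT3G24510 read 7.85, 8.93 and 7.22 TPM in the Col libraries, 1.17, 0.939 and 1.56 in HTR5, 0, 0.132 and 0.124 in sdg2 and 0 throughout in K4A, and AT1G77525 read 7.89, 6.33 and 7.17 TPM in the Col libraries, 0.755, 1.13 and 0.785 in HTR5 and 0 in all K4A and sdg2 libraries. Both thus had reads in every HTR5 library. AT1G13605 (6.51, 2.18 and 10.7 TPM in Col), AT5G55132 (8.28, 6.6 and 4.18 TPM) and AT1G58055 (4.51, 5.28 and 5.69 TPM) had 0 reads outside Col. AT1G13605 varied most between the Col libraries and fell below the minimum of 5 TPM when Col replicate 3 was left out.

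Other small proteins followed the same course. AT2G38900, a serine protease inhibitor of the potato inhibitor I type, read 22.2, 16.5 and 18.6 TPM in Col, and 2 reads in 1 HTR5 library were all that was found elsewhere. AT2G30810, of the gibberellin-regulated family, read 15.5, 15.9 and 14.3 TPM in Col and had 0 reads in the other 9 libraries, at least 81.1-fold below Col in HTR5 and at least 125-fold below it in K4A and sdg2. AT3G01324, an ECA1-like gene, read 7.77, 3.9 and 6.97 TPM in Col and 0 elsewhere. It rests on 43 reads in all. AT5G09370, of the family of lipid transfer proteins, read 16.9, 18.9 and 19.6 TPM in the Col libraries, 1.6, 1.02 and 1.07 in HTR5, 0.126, 0 and 0 in sdg2 and 0.249, 0.203 and 0.431 in K4A. AT5G39130, a cupin, read 20.3, 13.3 and 21.2 TPM in the Col libraries, 2.01, 1.04 and 1.12 in HTR5, 4.87, 5.26 and 3.56 in sdg2 and 1.12, 1.37 and 0.817 in K4A. Its sdg2 mean stood at 24.99% of Col, just inside the limit. AT4G33720, of the family of cysteine-rich secretory proteins, read 5.9, 8.78 and 5.05 TPM in the Col libraries, 0.513, 0.577 and 0.178 in HTR5, 0.757, 1.22 and 1.4 in sdg2 and 0.124, 0.304 and 0.129 in K4A.

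AT5G47350, an alpha/beta-hydrolase, read 73.2, 63.5 and 78.1 TPM in the Col libraries, 0.336, 0.471 and 0.436 in HTR5, 0.325, 0.199 and 0.187 in sdg2 and 0.122, 0.199 and 0.19 in K4A, so that it kept 0.238 to 0.579% of its Col mean. The remaining 7 genes encode uncharacterized proteins. AT1G62333 read 17.4, 12.6 and 17.8 TPM in the Col libraries, 0.804, 0.602 and 1.39 in HTR5, 0.148, 0 and 0.199 in sdg2 and 0.195, 0.317 and 0.607 in K4A. AT1G61255 read 12.4, 13.6 and 17.4 TPM in the Col libraries, 2.82, 1.95 and 1.58 in HTR5, 0.6, 0.343 and 0.645 in sdg2 and 1.1, 1.03 and 0.655 in K4A. In both, the HTR5 mean was the highest outside Col. AT1G14455 read 10.8, 9.46 and 8.15 TPM in the Col libraries, 0.774, 2.32 and 2.14 in HTR5, 0, 0.612 and 0.383 in sdg2 and 0.187, 0.763 and 0.584 in K4A. AT5G42235 read 5.4, 5.18 and 9.24 TPM in the Col libraries, 0.674, 1.77 and 0.934 in HTR5, 0.373, 0 and 0 in sdg2 and 0.98, 0.266 and 0.17 in K4A. AT1G56415 (13.8, 5.5 and 7.38 TPM in Col), AT2G02515 (9.33, 11 and 5.72 TPM) and AT4G35725 (5.49, 5.27 and 5.3 TPM) stayed at or below 0.5003, 0.475 and 0.238 TPM in the other libraries.

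Taking the set as a whole, 7 genes had 0 reads in all 9 libraries outside Col, and 13 had 3 reads or fewer in each of them. What was left outside Col was a median of 3.53% of the Col mean in HTR5, 0.92% in K4A and 1.07% in sdg2, with maxima of 23.1, 21.4 and 24.99%. HTR5 had the highest level of the 3 low groups for 22 genes, sdg2 for 9 and K4A for 1. This was not counted over all genes. Some of the 22 rest on very few reads, such as AT2G38900 with 2 and EXPA23 with 1 in HTR5, so nothing is read from these counts. Fewer genes were without a read in HTR5 (7) than in K4A or sdg2 (14 each), although the HTR5 libraries were the shallower ones.

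**Figure D3:**
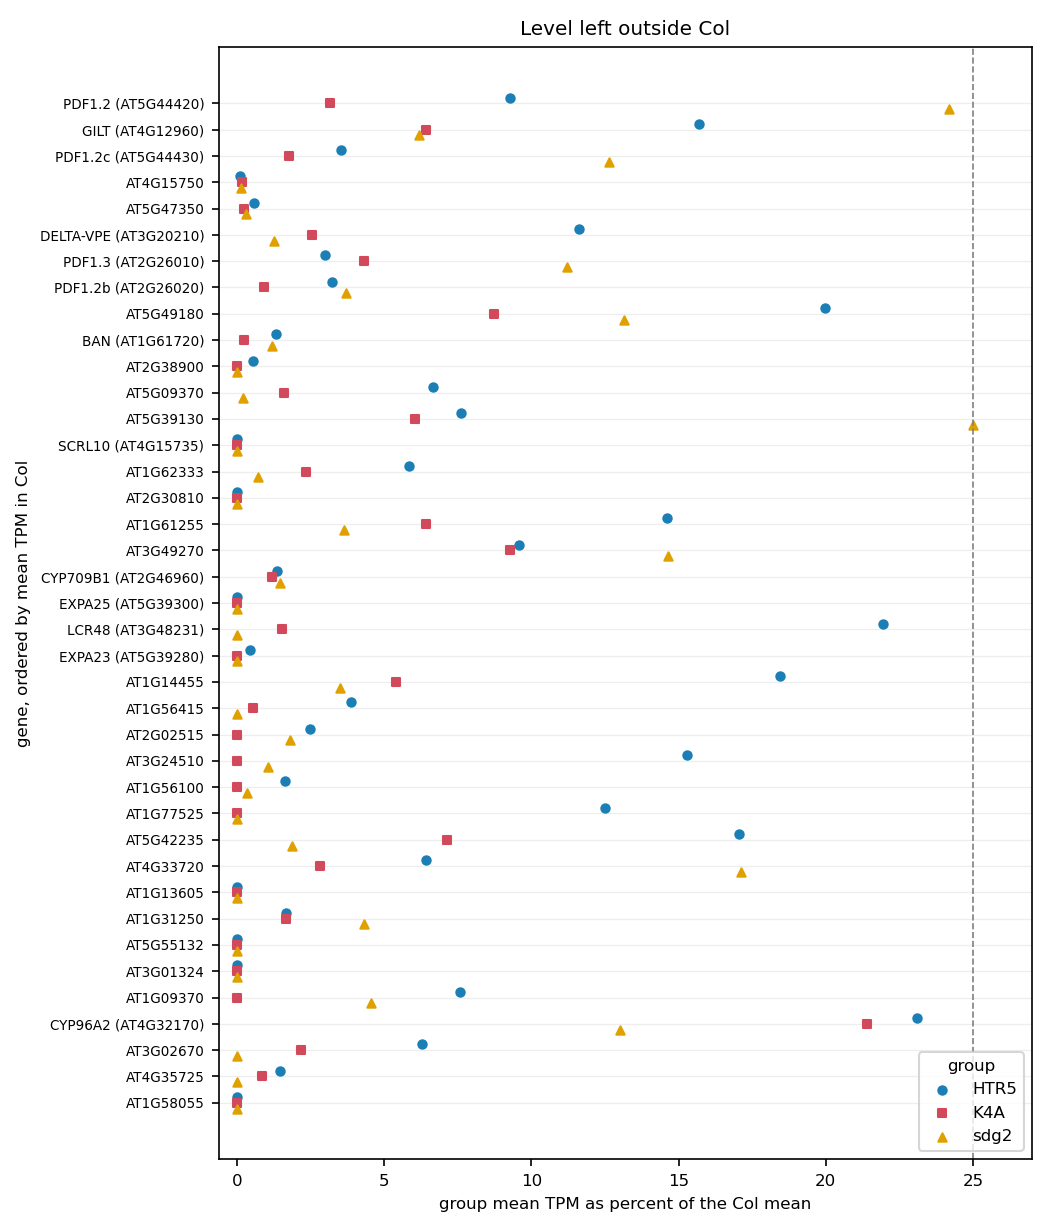
Group mean TPM as percent of the Col mean for each of the 39 genes, with 1 point per group and a dashed line at the limit of 25%. HTR5 lies farthest right for 22 genes, a count not made over all genes, while the defensins PDF1.2, PDF1.2c and PDF1.3 and the cupin AT5G39130 are farthest right in sdg2.

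The thresholds cut through a continuum. Just inside the 25% limit were CYP96A2 (23.1% in its highest other group), PDF1.2 (24.2%) and AT5G39130 (24.99%). Just outside were AT3G05460 (26.0%), AT1G04645 (27.1%) and the transporter gene OCT3 (28.7%). At the Col minimum the last inside were AT1G58055 (5.16 TPM), AT4G35725 (5.36) and AT3G02670 (5.40), and the first outside were AT5G44973 (4.64 TPM), SCRL14 (4.40) and AT4G03930 (4.35). AT5G44973 and SCRL14 are themselves peptides of the defensin-like and SCR-like kind.

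Genes with Col means from 1 to 5 TPM were therefore examined by family. Of 48 defensin-like, LCR and SCR-like genes in that range, 23 (47.9%) were at or below 25% of Col in every other group, and 11 of the 48 had 0 TPM in all 9 other libraries. The same held for 5 of 5 ECA1-like genes, 7 of 22 genes of the lipid transfer and 2S albumin family and 4 of 25 invertase and pectin methylesterase inhibitor genes. Over all 3861 genes in that range it held for 102, or 2.64%. It held for 0 of 29 cytochrome P450 genes and 0 of 25 alpha/beta-hydrolase genes, counts that say little beside a share of 2.64% over all genes. At these levels a gene rests on few reads, and no test was made.

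Annotation that the rule did not use was shared by much of the set. RefSeq carries notes on where a transcript was seen in earlier work. Growth stages were named for 15 of the 39 genes, and the C globular stage, an early stage of the embryo, was among them in all 15. Of the 788 genes with a Col mean of at least 5 TPM and named stages, 174 (22.1%) had it. Plant structures were named for 13 genes and included the embryo in 11 (84.6%), against 31 of 697 such genes (4.45%). The sepal was named for 6 of the 13 (46.2%, against 9.04%) and the central cell, a cell of the ovule, for 3 (23.1%, against 0.574%). Leaf was named for 1 of the 13 (7.69%), against 31.3%, and pollen-related structures appeared for AT4G15750 and AT5G09370. The notes of 19 genes named no structure and those of 7 gave only a number of structures.

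A protein location was noted for 35 genes, and in 31 (88.6%) it was the endomembrane system, against 14.4% of 9912 genes with a Col mean of at least 5 TPM. The proteins were short, with a median coding length of 123 codons against 387, and 15 of the 39 (38.5%) had 100 codons or fewer, against 3.74%. These shares are descriptions of the list, and the families overlap with them, since defensins are both short and secreted.

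**Figure D4:**
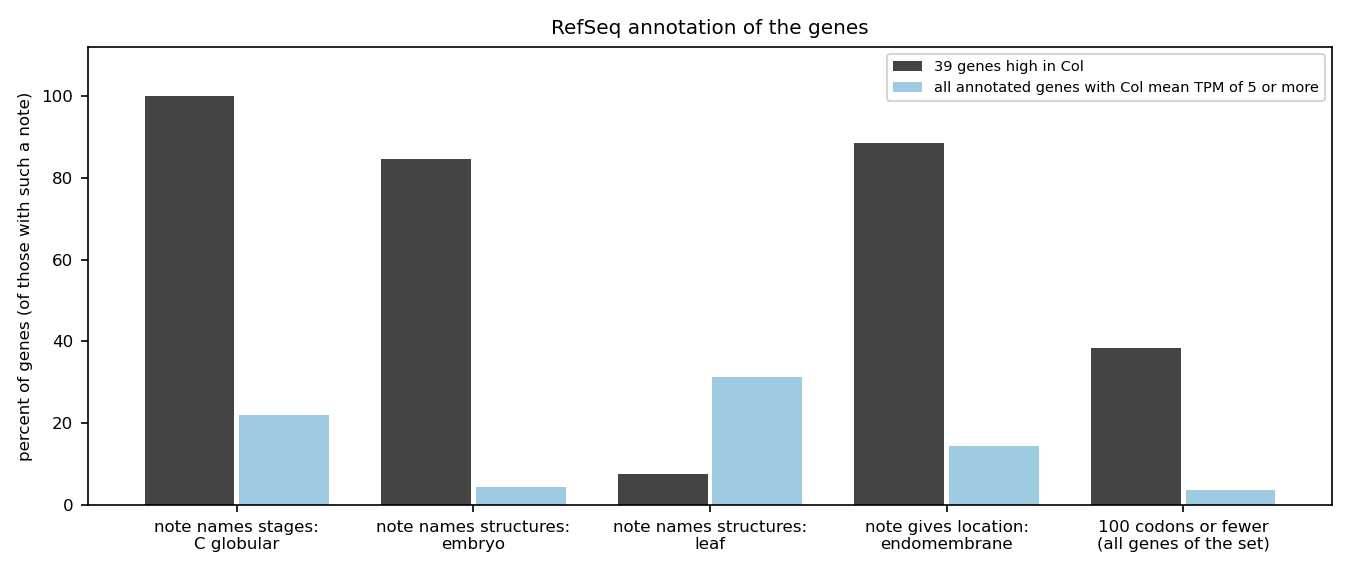
Percent of genes with a given RefSeq note, among genes that have a note of that kind, and percent with 100 codons or fewer, for the 39 genes (dark bars) and for all annotated genes with a Col mean of at least 5 TPM (light bars). The C globular stage (15 of 15 genes, against 22.1%) and the embryo (84.6% against 4.45%) are the farthest apart.

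Members lay next to or near one another in a few places. There were 4 pairs of members within 5 gene ranks of each other, which hold 8 genes: PDF1.2 with PDF1.2c, PDF1.3 with PDF1.2b, SCRL10 with AT4G15750, and EXPA23 with EXPA25. The defensin pairs are adjacent, and the last 2 pairs are 2 ranks apart. The genes between them, AT4G15740 and the expansin gene EXP26, had means of 0 and 0.0885 TPM in Col. Of the 72 other adjacent genes, 27 reached 5 TPM in Col, and 0 of these were at or below 50% of Col in every other group, which held for 64 of the 15756 genes that reached 5 TPM in Col (0.406%), so that a count of 0 says little here. Their highest other group stood at a median of 124% of Col, against 135% over all genes that reached 5 TPM. Among the adjacent genes below 5 TPM, AT3G01323, an ECA1-like gene beside AT3G01324, had 4.23 TPM in Col, 0.494 in HTR5 and 0 in K4A and sdg2. AT3G01325 on its other side had 2.39 TPM in Col and 0 elsewhere, and AT5G55131, beside AT5G55132, had 2.32 TPM in Col and 0 elsewhere. AT5G44440, beside PDF1.2c, had 3.93 TPM in Col, 2.15 in HTR5, 2.51 in sdg2 and 1.203 in K4A. CYP709B2, 402 bases from CYP709B1, was higher in K4A (5.45 TPM) and sdg2 (3.33) than in Col (2.04). AT5G39120, a cupin gene beside AT5G39130, was higher in sdg2 (22.6 TPM) than in Col (0.610).

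Genes known from the seed coat were then read, since BAN and DELTA-VPE are known there. The list held 10 genes besides BAN, and it was written with earlier results of these data known. TT12, the transporter that loads tannin precursors into the vacuole, read 2.68, 2.69 and 3.03 TPM in Col and 0.0454 to 0.148 TPM in the other 9 libraries. TT2, the MYB factor that switches on BAN, read 2.06, 3.23 and 2.73 TPM in Col, 0.123 to 0.138 in HTR5, 0.458 to 0.885 in sdg2 and 0.186 to 0.358 in K4A. Both reached the filter for testing, a TPM of at least 1 in 3 libraries, only through Col, so that they had to differ and no weight is put on their tests. AHA10, a proton pump of the tannin pathway, read 5.44, 4.13 and 5.46 TPM in the Col libraries, 1.49, 1.25 and 1.58 in HTR5, 2.30, 2.09 and 2.37 in sdg2 and 1.49, 1.76 and 2.18 in K4A. Its Col libraries were all above every other library. MUM2, an enzyme of seed mucilage, had means of 72.6 TPM in Col, 67.7 in HTR5, 44.9 in sdg2 and 51.3 in K4A.

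On the log2(TPM + 1) scale, which understates the change of low genes, AHA10 fell by 1.29 (SE 0.142) in HTR5 against Col, with a limma adjusted p of 2.06e-05. It fell by 1.10 in K4A (limma adjusted p = 5e-06) and by 0.88 in sdg2 (limma adjusted p = 4.88e-05). AHA10 kept its call in all 3 groups under every alternative in which it was tested. TTG2, a WRKY factor of seed coat and hairs, fell in sdg2 (log2 change -0.64, limma adjusted p = 0.000518). In HTR5 it fell by 0.52 (limma adjusted p = 0.0246), a call that was lost without Col replicate 2 or 3 (limma adjusted p = 0.0688 and 0.114), without HTR5 replicate 3 (0.0546) and with the compared groups alone (0.146). In K4A it was higher (0.32, limma adjusted p = 0.0467), which was lost with median-of-ratios scaling (0.12, limma adjusted p = 0.455) and under most other alternatives. MUM2 did not pass the test in HTR5 (-0.10, limma adjusted p = 0.438) and fell in K4A (-0.49) and sdg2 (-0.68), at limma adjusted p-values of 3.21e-05 and 9.89e-07. Only AHA10, TTG2 and MUM2 passed the filter without the Col libraries, and of these 3 genes 2 were lower in HTR5, 2 in K4A and 3 in sdg2, where 3.78, 23.8 and 20.7% of all genes in the fit were lower. Without the call of TTG2 the count in HTR5 was 1, AHA10. Over all genes 5.5, 48.6 and 52.4% were higher in these groups, in that order, and 9.28, 72.4 and 73.2% were called in either direction. With median-of-ratios scaling 866 genes were higher and 1350 lower in HTR5 than in Col, in place of 1148 and 790. That scaling gave 7397 and 7432 in K4A, in place of 10151 and 4965, and 7272 and 7181 in sdg2, in place of 10951 and 4327. A fit to the compared groups alone called 775 genes in HTR5 against Col, in place of 1938.

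With no filter on low values, 9 of the 10 listed genes had a value above 0 and were tested. Of them 6, 7 and 8 were lower in HTR5, K4A and sdg2, against 3.53, 21.4 and 18.2% of 25665 genes. The 9 include TT12 and TT2, on which no weight is put, and genes near 0 such as TT1 and TT10. The list was also written with earlier results known, so nothing is read from these counts. TT16, which shapes the tannin-making layer, had means of 1.38 TPM in Col, 0.681 in HTR5, 0.628 in sdg2 and 0.634 in K4A. TT1 had 0.764 TPM in Col and 0.0377 to 0.210 TPM as group means elsewhere, and TT10, the laccase that browns the tannins, had 0.446 TPM in Col and 0.114 to 0.130 TPM elsewhere. MYB5 was at 0 in all 12 libraries. HTR5 and Col are of similar depth, so the comparison of that pair does not cross the depth sets.

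**Figure D5:**
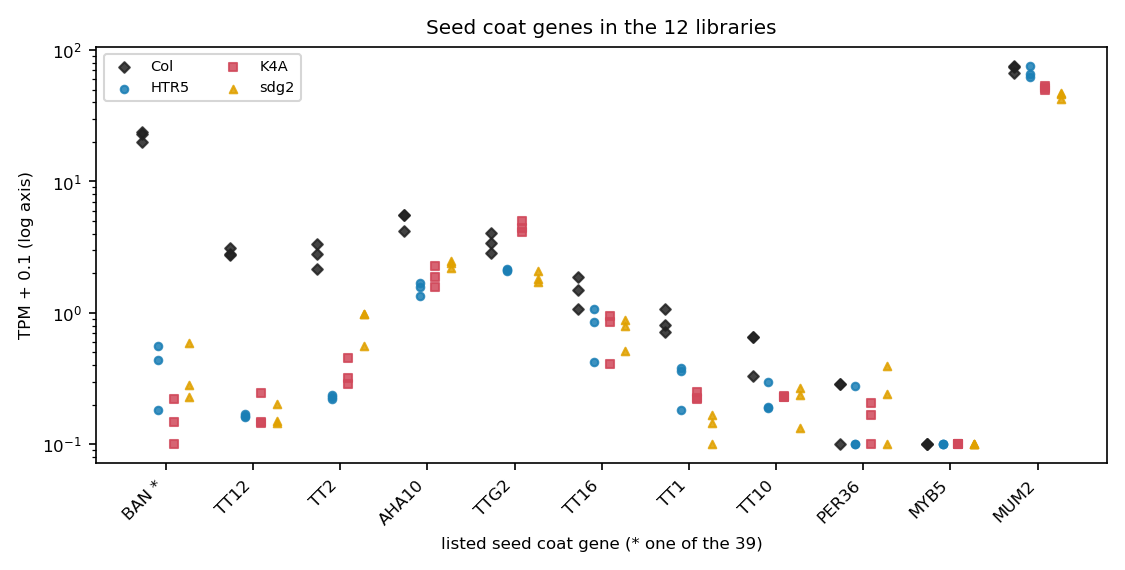
TPM + 0.1 on a log axis for 11 listed seed coat genes, with 1 point per library and colour and shape by group. BAN, TT12, TT2 and AHA10 are highest in the 3 Col libraries, TTG2 is highest in K4A (a mean of 4.40 TPM, against 3.36 in Col), and MYB5 is at 0 throughout.

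Lists for other tissues were read in the same way, as sums of TPM. Seed storage genes summed to 9.67 to 9.79 TPM in Col libraries, 6.66 to 10.01 in HTR5, 7.76 to 9.21 in sdg2 and 10.4 to 13.04 in K4A, and of the 18 genes 2 reached 1 TPM in Col. Endosperm genes summed to 5.65 to 7.46 TPM in Col, 3.37 to 5.18 in HTR5, 3.82 to 5.28 in sdg2 and 9.47 to 12.1 in K4A. Pollen genes summed to 298 to 410.4 TPM in Col, 228 to 286 in HTR5, 432 to 509 in sdg2 and 14.4 to 19.5 in K4A, and tapetum genes had group means of 368 TPM in Col, 469 in HTR5, 219 in sdg2 and 87.0 in K4A. Of the genes on these 4 lists with a Col mean of at least 1 TPM, 0 were at or below 50% of Col in every other group. That count says little, since the same held for only 0.406% of all genes that reached 5 TPM in Col. Below 1 TPM in Col, FWA of the endosperm list was (0.46 TPM in Col, 0.0122 in HTR5, 0.0225 in sdg2 and 0.0453 in K4A). So was LEC1 of the seed storage list (0.279 TPM in Col, 0.0241 in HTR5, 0.0133 in sdg2 and 0.0702 in K4A). FWA had 11 to 14 reads in each Col library and 0 to 3 in each other library, and LEC1 had 1 to 8 in each Col library. Floral organ genes summed to means of 140.3 TPM in Col, 174 in HTR5, 119.6 in sdg2 and 113 in K4A, so transcripts of these genes were present in all 4 groups of libraries labelled as seedlings. Leaf genes summed to 35250 to 36090 TPM in Col, 29600 to 36300 in HTR5, 11980 to 13530 in sdg2 and 17770 to 18940 in K4A. All 6 leaf genes were lower than in Col in K4A and in sdg2, where 23.8 and 20.7% of all tested genes were lower. In HTR5 0 of 6 were called, against 9.28% of all tested genes, so that count says little.

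The list of ovule and carpel genes held 5 genes, which summed to group means of 23.4 TPM in Col, 18.95 in HTR5, 22.7 in sdg2 and 12.1 in K4A. STK, the MADS-domain factor of ovules and the seed coat, read 7.31, 5.83 and 6.77 TPM in the Col libraries, 2.97, 4.30 and 3.18 in HTR5, 1.22, 0.920 and 1.41 in sdg2 and 1.29, 1.38 and 1.64 in K4A. Its Col libraries were all above every other library. STK fell by 0.78 in HTR5 (limma adjusted p = 0.00353), by 1.65 in K4A (limma adjusted p = 8.39e-08) and by 1.81 in sdg2 (limma adjusted p = 2.89e-08). SHP2 fell in all 3 groups, with means of 5.03 TPM in Col, 2.91 in HTR5, 2.12 in sdg2 and 1.80 in K4A, and its call in HTR5 was lost without Col replicate 2 (limma adjusted p = 0.0502) and with the compared groups alone (0.0657). SHP1, its close relative, was lower than in Col (4.01 TPM) in HTR5 (1.90) and K4A (1.92) and higher in sdg2 (7.51). INO, a factor of the outer layer of the ovule, was lower in sdg2 (0.519 TPM) and K4A (0.627) than in Col (1.94) and was not called in HTR5 (2.09). CRC, a factor of carpels and nectaries, was higher in sdg2 (11.4 TPM) than in Col (5.76). Thus HTR5 had 3 of the 5 lower than Col and K4A had 4, while sdg2 had 3 lower and 2 higher. Over all tested genes, 3.78, 23.8 and 20.7% were lower in HTR5, K4A and sdg2, and 52.4% were higher in sdg2. This list too was chosen with earlier results known, so nothing is read from these counts. The part of tissue makeup in the level of the 39 genes was not tested.

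The groups other than Col were compared with one another across all 20881 genes that passed the filter, with limma on log2(TPM + 1). The rule capped the level of the 39 genes in all 3 groups but did not set which of the 3 is higher. The comparisons share groups and are given side by side. In K4A against HTR5, 14 of the 39 were called at an adjusted p under 0.05, all 14 lower in K4A, where 68.6% of all tested genes were called, 26.1% lower and 42.5% higher. In sdg2 against HTR5, 17 were called, 6 higher and 11 lower in sdg2, where 70.4% of all tested genes were called, 47.2% higher and 23.2% lower. In K4A against sdg2, 8 were called, 7 lower and 1 higher in K4A, where 50.2% of all tested genes were called, 29.8% lower and 20.4% higher. Only 12 of the 39 passed the filter without the Col libraries, the other 27 reached it through Col alone, and 13 of the 39 had 3 reads or fewer in each library of these groups, so nothing is read from the share of the 39 that was called. In fits to the compared groups alone, 8 of 12 tested genes of the set were called in K4A against HTR5, where 64.2% of all tested genes were called. The count was 10 of 12 in sdg2 against HTR5 (67.0% of all tested genes) and 6 of 8 in K4A against sdg2 (62.5%).

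In K4A against HTR5 the largest falls were in DELTA-VPE (log2 change -1.50, SE 0.167, limma adjusted p = 9.68e-07), LCR48 (-1.46, SE 0.225, limma adjusted p = 3.22e-05) and PDF1.2 (-1.44, SE 0.125, limma adjusted p = 5.3e-08). GILT (-1.24) and AT3G24510 (-1.14) followed, with limma adjusted p-values of 1.03e-07 and 4.42e-06. In each of these 5 genes, picked as the largest falls, every K4A library was below every HTR5 library. How often these libraries part in the same way over all genes was not counted. With 68.6% of all tested genes called, nothing is read from that separation. The other 9 called genes had falls between 0.48 (AT1G62333) and 0.91 (AT1G77525), and of the 14 calls those of AT1G09370, AT1G62333 and PDF1.2b were lost under at least 1 alternative. Of the 14, AT1G09370, AT1G14455, AT1G62333, AT1G77525, AT3G24510 and PDF1.2b passed the filter only through Col.

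In sdg2 against HTR5 the genes parted in 2 directions. The fall was largest in DELTA-VPE (-1.96, SE 0.167, limma adjusted p = 4.59e-08), and LCR48 (-1.66) and GILT (-1.30) also fell, with limma adjusted p-values of 8.06e-06 and 6.25e-08. Of the 4 plant defensins 3 rose: PDF1.2c by 1.77 (SE 0.217, limma adjusted p = 2.94e-06), PDF1.2 by 1.38 (SE 0.125, limma adjusted p = 8.73e-08) and PDF1.3 by 1.27 (SE 0.221, limma adjusted p = 1e-04). PDF1.2b was not called (0.12, limma adjusted p = 0.661). The cupin AT5G39130 rose by 1.23 and AT4G33720 by 0.58, with limma adjusted p-values of 5.04e-05 and 0.0142. AT3G49270 rose by 0.39 (limma adjusted p = 0.0423). Of the 17 calls, those of AT3G49270, AT4G33720 and AT5G49180 were lost under at least 1 alternative. Those of AT1G14455, AT1G62333, AT1G77525, AT3G24510, AT4G33720 and AT5G42235 are of genes that passed the filter only through Col.

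K4A against sdg2 lies within the deeper set of libraries. There the 4 defensins were all lower in K4A: PDF1.2 (-2.83, SE 0.125, limma adjusted p = 7.7e-11), PDF1.2c (-2.57, SE 0.217, limma adjusted p = 1.1e-07), PDF1.3 (-0.93, limma adjusted p = 0.00246) and PDF1.2b (-0.68, limma adjusted p = 0.0252). AT5G39130 (-1.40), AT4G33720 (-0.83) and AT5G49180 (-0.41) were also lower, with limma adjusted p-values of 2.85e-05, 0.00208 and 0.0315. DELTA-VPE was the 1 gene of the set called higher in K4A (0.45, SE 0.167, limma adjusted p = 0.0339). With a pseudocount of 0.1, 4 of the 39 were called higher and 7 lower, and with 0.5 the counts were 2 and 7. The calls of PDF1.2b, AT5G49180 and DELTA-VPE were each lost under at least 1 alternative, and the other 5 were kept under every alternative in which the gene was tested. PDF1.2b and AT4G33720 passed the filter only through Col.

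Within Col the 39 genes were less even than other genes. The highest Col library was a median of 1.33 times the lowest, against 1.15 for all 12334 genes with Col means of 5 to 50 TPM. These genes were not matched for read number. The set had a median gene span of 841 bases, against 2456 for annotated genes that reached 5 TPM in Col. Fewer reads thus stood behind the same TPM, and counting error was larger. The part of counting error in the ratio was not tested. Replicate 2 was the lowest Col library for 24 of the 39 (61.5%), against 27.9% of all genes that reached 5 TPM, and replicate 3 was the highest for 18 (46.2%), against 24.3%. GILT, AT4G15750, AT5G47350 and BAN were all lowest in replicate 2. The genes are not independent of one another, and no test was made.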

How the data were processed

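RNA was sequenced from 12 libraries, which the titles assign to groups and replicates. A table with TPM values of 27655 genes was deposited by the authors. The submitters' processing notes name fastp 0.20.1, HISAT2 2.1.10, DESeq2 1.26.0 and the build TAIR10, while the counting tool and the use of strand are not given in the sources used here. Coordinates, sequences and annotation are from RefSeq TAIR10.1. At the RefSeq gene span, at least 99.978% of the values in each library came out as whole reads (tolerance 0.01), which gave the read counts and depths, and 222 gene IDs matched no locus tag. Because TPM was divided by the whole span, genes with long introns are understated. Floors of 3 reads per group cover counting error only.

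Differences were tested on the log2(TPM + 1) scale by limma 3.58.1 (R 4.3.3, eBayes with trend) for genes that reached 1 TPM in 3 or more libraries, with 12 libraries in 1 fit and Benjamini-Hochberg adjustment, called at an adjusted p under 0.05. The fit was tested on simulated data. Other settings tried were a pseudocount of 0.1 or 0.5, a mean TPM filter of 5 or none, median-of-ratios and quantile scaling, a fit to only the groups compared, a replicate block, each library left out, and other thresholds of the rule. Limma-voom on the recovered reads and the tests of seed coat, ovule and leaf genes against Col were added after seeing the data. The members and all gene lists were chosen with earlier results of these data known. Every member was named. Values in all libraries were planned for the 25 highest, those at or near 0 elsewhere, close pairs, listed genes and the largest changes. Identity of coding sequences was computed with Biopython 1.88.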

Additional observations from a re-analysis of the deposited data

How the results depend on the processing

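The number of genes that met the rule, 39, was 37 to 41 when 1 library was left out, 42 with median-of-ratios scaling and 39 with group medians. It was 80 with a Col minimum of 2 TPM, 21 with 10 TPM and 64 with a limit of 50% of Col, as the thresholds themselves decide. Of the 39, 26 were left with a limit of one eighth. In K4A against HTR5 the number of the 39 called (14) was 7 with a mean TPM filter of 5 and 8 with the compared groups alone, and in sdg2 against HTR5 (17) it was 8 and 10. Both settings tested only 12 of the 39, since the others are too low without Col. With a pseudocount of 0.1, 18 were called in K4A against HTR5, 11 in K4A against sdg2 and 20 in sdg2 against HTR5. Leaving out a library gave 11 to 14 called in K4A against HTR5, 5 to 9 in K4A against sdg2 (8 with all libraries, 5 without K4A replicate 2) and 15 to 18 in sdg2 against HTR5. Leaving out a Col library left 19 of the 39 past the filter. No call of the 39 changed direction under any alternative run.

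Median-of-ratios scaling moved the median of all genes in K4A against HTR5 from 0.14 to 0.00, and called 7366 genes higher and 7209 lower in place of 8868 and 5451. In sdg2 against HTR5 it called 7382 and 7229 in place of 9854 and 4853, and in K4A against sdg2 5499 and 5211 in place of 4261 and 6228. Of the 39 genes it called 0 higher and 15 lower, 5 and 12, and 1 and 6 in these comparisons.

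The number of listed seed coat genes lower than in Col, with TT12 and TT2 counted although they reached the filter only through Col, was 4 in HTR5, 4 in K4A and 5 in sdg2. With no filter it was 7 in K4A and 8 in sdg2, and with a mean TPM filter of 5, which left 1 listed gene, it was 0, 1 and 1. Leaving out a library gave 1 to 4, 2 to 4 and 3 to 5. TT12 and TT2 leave the filter without a Col library, and TTG2 lost its call in HTR5 without Col replicate 2 or 3 or HTR5 replicate 3. The 3, 4 and 3 ovule and carpel genes lower than in Col became 0, 0 and 0 with the mean TPM filter of 5, which left 1 of them. Leaving out a library gave 2 to 3, 4 to 4 and 3 to 3.

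Same-numbered libraries of the 3 groups other than Col correlated at -0.136 to 0.0703 in their deviations from group means. These values gave no sign of pairing by number, but Col was left out of them and a shared batch was not tested. With the replicate block, 13, 8 and 16 of the 39 were called in K4A against HTR5, K4A against sdg2 and sdg2 against HTR5, and the seed coat counts were 4, 4 and 5 and the ovule and carpel counts 3, 4 and 3. Limma-voom on recovered reads, chosen after seeing the data, called 18, 8 and 17.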
